A study of Mus musculus with 6 samples.

Results

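The genes described here carry pyruvate into mitochondria, oxidise it in the citric acid cycle and pass the electrons of cytosolic NADH across the mitochondrial inner membrane. They were chosen by function from a fixed list of 31 mouse genes, and all 31 were found among the 18089 genes of the table. Their RNA was measured in the ischemic gastrocnemius, a calf muscle, of 3 WT and 3 GPR174-KO C57BL/6 mice, taken 7 days after hindlimb ischemia (HLI), which is made by tying off and removing part of the femoral artery. GPR174 is a receptor on lymphocytes whose gene is X-linked, so the male knockout mice are Gpr174-/Y. The deletion was in the whole body, the mice were male and 8 to 10 weeks old, and the WT mice are described as littermates. Every library came from an operated limb, so the comparison says how the genotypes differed after HLI and not what HLI itself did.

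Muscle fibres take up pyruvate through the mitochondrial pyruvate carrier, and the pyruvate dehydrogenase complex turns it into acetyl-CoA. The citric acid cycle oxidises acetyl-CoA and hands the electrons to NADH and, at succinate dehydrogenase, straight to the respiratory chain. Cytosolic NADH from glycolysis cannot cross the inner membrane, so its electrons travel on malate in the malate-aspartate shuttle or on glycerol 3-phosphate in the glycerol phosphate shuttle. Fast fibres such as those that make up most of the mouse gastrocnemius use the glycerol phosphate shuttle heavily.

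Promoter sequences of 4 members, for a cycle enzyme and a shuttle enzyme with a motif of a mitochondrial regulator and for the carrier pair that moved in opposite directions, are given as the 250 bases before the transcription start, written 5′ to 3′ in the direction of the gene. Sdhb (chr4:140961021-140961270, plus strand) encodes the iron-sulfur subunit of succinate dehydrogenase, and Got1 (chr19:43524606-43524855, minus strand) encodes the cytosolic aspartate aminotransferase. Slc25a12 (chr2:71367756-71368005, minus strand) and Slc25a13 (chr6:6217174-6217423, minus strand) encode the paired aspartate-glutamate carriers. Capitals mark the core site of NRF1 in Sdhb and the core site of the estrogen-related receptors (ERR) in Got1, and the sequences are from RefSeq on GRCm38.p6.
Sdhb: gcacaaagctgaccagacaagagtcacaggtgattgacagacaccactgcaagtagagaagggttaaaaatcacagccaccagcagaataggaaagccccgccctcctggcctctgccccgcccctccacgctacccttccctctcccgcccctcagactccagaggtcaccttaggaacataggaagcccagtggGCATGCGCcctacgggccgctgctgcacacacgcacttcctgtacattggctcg
Got1: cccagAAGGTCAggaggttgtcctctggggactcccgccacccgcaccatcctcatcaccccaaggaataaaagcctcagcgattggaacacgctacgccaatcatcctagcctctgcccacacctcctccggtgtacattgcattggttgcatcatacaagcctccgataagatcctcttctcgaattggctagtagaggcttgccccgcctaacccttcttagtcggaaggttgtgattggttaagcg
Slc25a12: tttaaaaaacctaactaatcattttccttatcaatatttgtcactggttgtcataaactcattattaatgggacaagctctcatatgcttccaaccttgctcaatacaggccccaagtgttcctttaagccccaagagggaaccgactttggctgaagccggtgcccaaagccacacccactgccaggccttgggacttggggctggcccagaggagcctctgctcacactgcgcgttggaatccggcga
Slc25a13: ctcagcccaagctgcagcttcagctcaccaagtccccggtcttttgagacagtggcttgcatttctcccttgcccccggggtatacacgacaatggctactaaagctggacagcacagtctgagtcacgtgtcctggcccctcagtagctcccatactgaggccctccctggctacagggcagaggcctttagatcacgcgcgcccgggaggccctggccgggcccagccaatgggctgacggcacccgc
The Slc25a12 window held 49.6% G and C and the Slc25a13 window 62.8%, and neither held any of the 6 motifs searched. In windows of 300 bases (250 before and 50 after the start), 28 of the 31 members had an entry. The ERR core AAGGTCA was found on either strand in 3 of the 28 (10.7%; Got1, Ogdh and Sdhd) against 5.38% of 27025 genes. The NRF1 core GCATGCGC was found in 2 members (7.14%; Ogdh and Sdhb) against 3.05% of genes, and the ETS core CCGGAAG, bound by GABP, in 6 members (21.4%) against 9.93%. The EGR1 site GCGTGGGCG was in 1 member, Suclg1 (3.57% against 0.707%). The MyoD E-box CAGCTG was in 3 members (10.7% against 18.3%), and the MEF2 site CTAAAAATA in none of the 28 (against 0.588%). Each motif was searched on both strands with no mismatch, none of them contains another, and these shares were not tested. The 27025 genes were not limited to genes expressed in this muscle, as the members are.

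The 6 libraries held between 18417107 and 19394505 expected counts, and a floor of 3 counts was 0.14 to 0.187 CPM, that is counts scaled to library size, here with TMM, edgeR's correction for libraries of different composition. Gpr174 itself had 8, 2 and 5 counts in WT and 1, 0 and 0 in GPR174-KO. The mature fibre genes were at high counts in all 6 libraries, and at least 1 defining marker of neutrophils, Ly6g, had no count in 5 of them. The replicates were not alike in the same way in each group: the chi-square per degree of freedom between WT replicates was 12.1 to 70.9, and between GPR174-KO replicates 1.85 to 9.35. Replicate 2 lay between replicates 1 and 3 for 77.1% of 9972 genes in WT and 68.2% in GPR174-KO, and whether that has a technical source was not tested. For the members, WT replicate 2 was the middle WT library in 31 of 31 and GPR174-KO replicate 2 the middle GPR174-KO library in 28 of 31. WT replicate 3 was the WT library nearest to GPR174-KO in 31 of 31, and the share of all genes with this order is not given here. The labels do not say that libraries are separate animals, and although the methods give 3 mice per group, p-values measure only the spread between these libraries.

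In all, 30 members were lower in GPR174-KO and 1 was higher. All 31 genes passed the filter on low counts and had an adjusted p under 0.05 in edgeR's quasi-likelihood test (0.000672 to 0.0166). The lower direction held 27.6% of the 14395 genes tested and the higher direction 27.0%. The median log2 fold change was -0.94 over the members and 0.0037 over all genes tested. With an absolute log2 fold change over 1 as well, 11 members were lower, against 4.84% of all genes. In TMM-scaled CPM the lowest WT library lay above the highest GPR174-KO library for 30 members, against 32.4% of all genes, and the gap between these libraries was 1.22-fold to 1.98-fold. For the remaining member, Slc25a13, the groups did not overlap in the other direction.

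**Figure D1:**
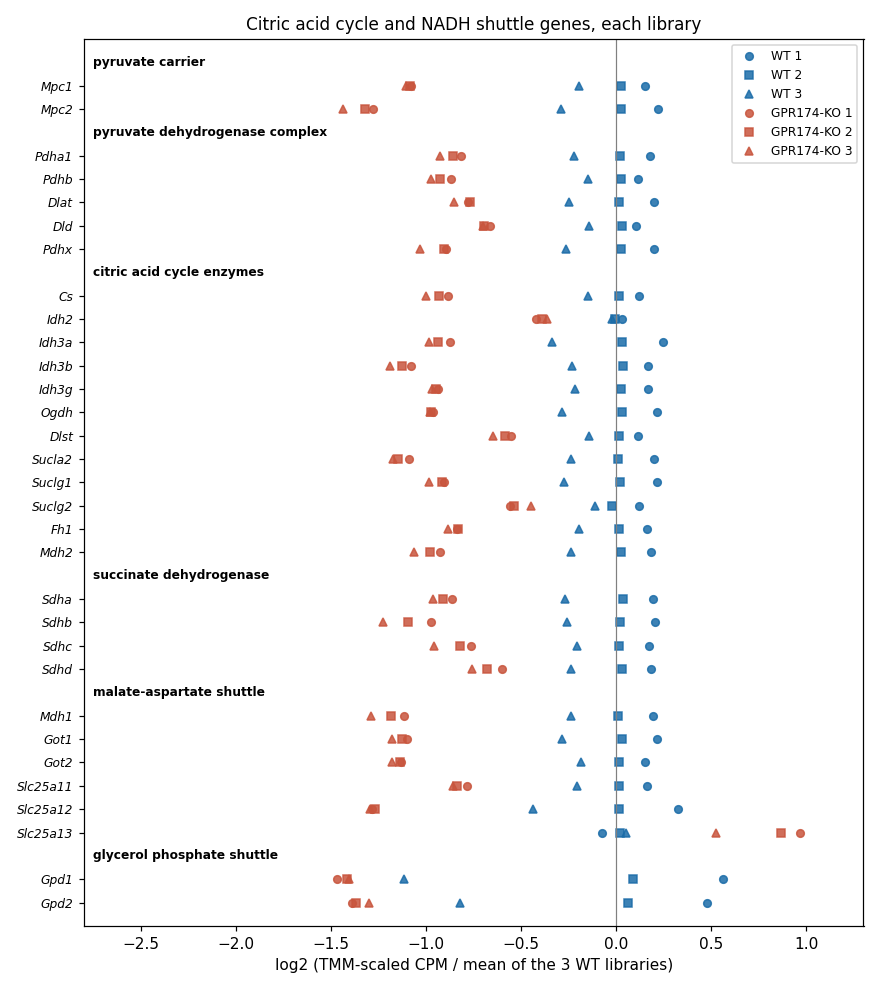
Each row is 1 gene, grouped by role, and each point 1 library, placed on the horizontal axis by the log2 of its TMM-scaled CPM over the mean of the 3 WT libraries (blue WT, red GPR174-KO; circle, square and triangle for replicates 1, 2 and 3). The red points lie left of the blue points in 30 rows and right of them in the row of Slc25a13, and the blue triangle of WT replicate 3 is the blue point nearest to the red ones in every row.

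The spread was wider in WT than in GPR174-KO for most members. The highest WT library was 1.04 to 3.2 times the lowest, with a median of 1.34, and in GPR174-KO the same ratio was 1.01 to 1.36, with a median of 1.07. Without WT replicate 3, 19 members were lower past both thresholds in place of 11, while the count over all genes rose from 696 to 934. With replicates 1 and 3 of each group alone, edgeR called none of the 31 at an adjusted p under 0.05 (0.0542 to 0.144), and no gene in the whole table passed. An unadjusted p under 0.05 was found for 30 members and for many other genes, whose count is given in the last section.

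The scaling between libraries sets the size of each change. With total counts in place of TMM the median of all genes moved by 0.27 on the log2 scale, and 3 members were then lower past both thresholds, while over all genes that count fell from 696 to 354. Over all genes, TMM gave 3972 lower and 3891 higher calls and total counts 2010 lower and 7303 higher, while 29 members were called lower and 1 higher with total counts. In TPM, a level per length expressed as a share of each library without correction for composition, the median over 14315 tested genes was 0.39 higher in GPR174-KO on the log2 scale. The TPM values below therefore show smaller falls and larger rises than the fold changes do. They serve to compare levels between genes and sums within a library.

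**Figure D2:**
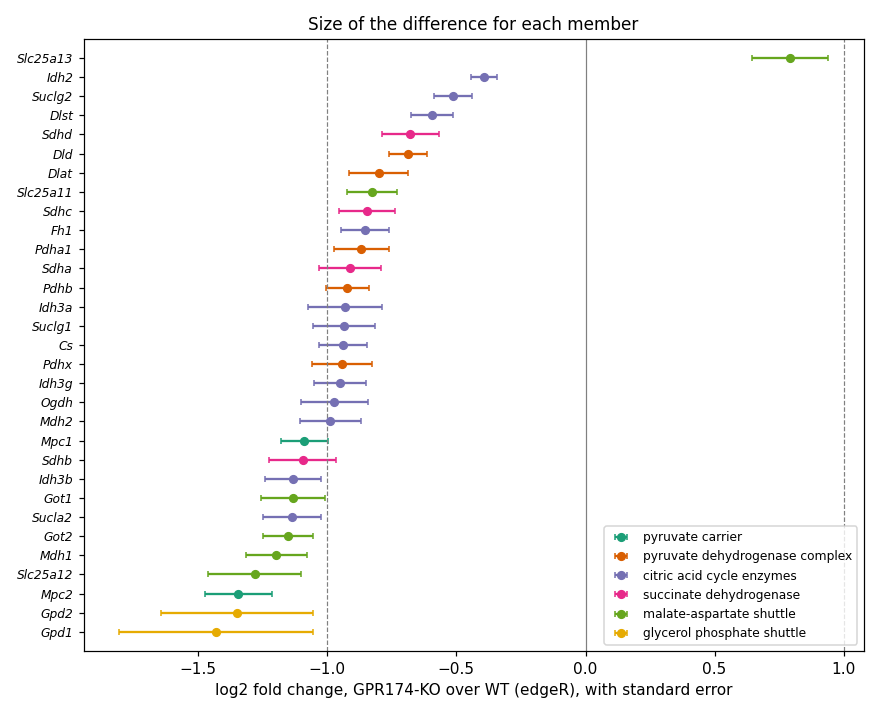
The log2 fold change of GPR174-KO over WT from edgeR is on the horizontal axis, with its standard error as the bar, for each of the 31 genes, coloured by role. Dashed lines mark a log2 fold change of -1 and 1. Gpd1 at -1.43 and Gpd2 at -1.35 lie farthest left and have the longest bars, Idh2 at -0.39 is the smallest fall, and Slc25a13 at 0.79 is the only gene right of 0.

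Both subunits of the pyruvate carrier fell past both thresholds. Mpc1, the subunit with the highest level of this pair, had 261.7, 239.2 and 205.5 CPM in the WT libraries and 111.5, 111.1 and 109.3 in GPR174-KO. It fell by 1.09 ± 0.092 (SE, n = 3 per group) on the log2 scale, to 47.0% of WT, with an edgeR adjusted p of 0.00068. Mpc2, its obligate partner, had 104.8, 91.5 and 73.4 CPM in the WT libraries and 37.0, 36.0 and 33.2 in GPR174-KO. It fell by 1.34 ± 0.13 on the log2 scale, to 39.4% of WT (edgeR adjusted p = 0.000839). The count ratio of Mpc1 to Mpc2 was 2.50, 2.61 and 2.80 in WT and 3.02, 3.09 and 3.29 in GPR174-KO, a log2 difference of 0.25 with no overlap (2-sided exact permutation p = 0.1, adjusted p = 0.15 over 6 ratios). For both genes the GPR174-KO libraries lay close together and well under the lowest WT library. Their summed level was 639.6 ± 56.4 TPM (SD, n = 3) in WT and 372.8 ± 4.33 TPM in GPR174-KO.

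All 5 subunits of the pyruvate dehydrogenase complex were lower, and none passed a log2 fold change of -1. Pdhb, the beta subunit of the decarboxylase and the member of this complex with the highest mean TPM, though Pdha1 is higher in CPM, had 413.9, 389.6 and 345.8 CPM in the WT libraries and 209.8, 201.6 and 195.1 in GPR174-KO. It fell by 0.92 ± 0.082 on the log2 scale (edgeR adjusted p = 0.00073), and the groups did not overlap. Its partner Pdha1 stood at a log2 fold change of -0.87, the acetyltransferase Dlat at -0.80, the anchoring protein Pdhx at -0.94 and the dihydrolipoamide dehydrogenase Dld, which the complex shares with 2-oxoglutarate dehydrogenase, at -0.69.

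Of the 4 kinases that switch the complex off, 3 were lower and 1 was higher. Of all 7 pyruvate dehydrogenase kinases and phosphatases, 5 were lower and 1 higher, and with total counts 4 were lower, since the phosphatase Pdp1, named after its values were seen, no longer passed (-0.76 with an edgeR adjusted p of 0.0253, and -0.47 with 0.0787). Pdk4, the kinase induced by fasting and fat use, had 355.9, 357.3 and 350.9 CPM in the WT libraries and 117.8, 133.3 and 159.5 in GPR174-KO and fell by 1.37 ± 0.11 on the log2 scale (edgeR adjusted p = 0.00062). The WT libraries of Pdk4 were nearly level, while those of GPR174-KO spread. Pdk2 had 486.1, 415.3 and 320.4 CPM in the WT libraries and 197.6, 211.3 and 228.3 in GPR174-KO, and fell by 0.94 ± 0.15 (adjusted p = 0.0029). Pdk1 had 54.1, 53.4 and 48.9 CPM in the WT libraries against 36.0, 36.7 and 34.8, and fell by 0.54 ± 0.057 (adjusted p = 0.000988). Pdk3 went the other way: it had 13.7, 14.0 and 15.2 CPM in the WT libraries and 23.9, 23.4 and 20.4 in GPR174-KO, a log2 fold change of 0.66 ± 0.084 (edgeR adjusted p = 0.00146). Pdpr, a regulator of the phosphatase, stood at a log2 fold change of -0.78. Of the 3 genes that make and attach lipoate, the cofactor of the complex, Lias stood at -0.70 and Lipt2 at -0.41. Both had an adjusted p under 0.05 in the same edgeR fit. Lipt1, named after its values were seen, stood at -0.23 (edgeR adjusted p = 0.0519). With total counts the call of Lipt2 was lost (-0.14, adjusted p = 0.237) and Lipt1 stood at 0.043.

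All 12 genes listed for the enzymes of the cycle, with the NADP-linked Idh2 among them, were lower, with a median log2 fold change of -0.94. Their summed level was 5194, 4868 and 4366 TPM in the WT libraries and 3298, 3314 and 3326 in GPR174-KO. Mdh2, the mitochondrial malate dehydrogenase, was the most abundant member of the whole list per length, at 1253 ± 121 TPM in WT. It had 1031, 921.9 and 769.9 CPM in the WT libraries and 478.0, 460.9 and 433.8 in GPR174-KO, and fell by 0.99 ± 0.12 on the log2 scale (edgeR adjusted p = 0.00126). The entry enzyme citrate synthase, Cs, stood at a log2 fold change of -0.94. The oxoglutarate dehydrogenase Ogdh stood at -0.97, its succinyltransferase Dlst at -0.60, the fumarase Fh1 at -0.85 and the succinyl-CoA ligase alpha subunit Suclg1 at -0.94.

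Of these 12 genes, 2 passed both thresholds. Idh3b, a regulatory subunit of the NAD-linked isocitrate dehydrogenase, had 407.3, 372.1 and 308.6 CPM in the WT libraries and 171.4, 165.9 and 158.7 in GPR174-KO. It fell by 1.13 ± 0.11 on the log2 scale, to 45.6% of WT (edgeR adjusted p = 0.00081). Its catalytic partner Idh3a stood at -0.93 and the other regulatory subunit Idh3g at -0.95. Sucla2, the subunit that makes succinyl-CoA ligase form ATP, had 364.1, 319.3 and 268.7 CPM in the WT libraries and 149.2, 143.1 and 140.4 in GPR174-KO, a fall by 1.14 ± 0.11 (edgeR adjusted p = 0.000871).

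The NADP-linked enzyme Idh2, which makes NADPH in the mitochondrial matrix, was named after its values were seen because it had the smallest change of all members. It had 207.8, 203.0 and 200.7 CPM in the WT libraries and 152.0, 155.3 and 158.4 in GPR174-KO. The groups did not overlap in CPM, and it fell by 0.39 ± 0.050 on the log2 scale (edgeR adjusted p = 0.00145). This fall depends on the scaling. In TPM Idh2 stood at 210.0 ± 6.99 (SD, n = 3) in WT and 209.8 ± 11.3 in GPR174-KO, and with total counts its log2 fold change was -0.12 with an adjusted p of 0.107 in edgeR. Suclg2, the subunit for the form of succinyl-CoA ligase that makes GTP, had the next smallest fall at -0.51, so the count ratio of Sucla2 to Suclg2 was 8.01, 7.74 and 6.93 in WT and 5.26, 4.96 and 4.57 in GPR174-KO. The mean difference of that ratio was -0.62 on the log2 scale, with p = 0.1 in a 2-sided exact permutation test, the smallest p that 3 against 3 libraries allow, and an adjusted p of 0.15 over the 6 ratios tested.

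The 2 transcripts of Idh3b differed in their shares between the groups. The estimate for NM_001362752.1 was 5828, 5453 and 4504 counts in WT and 2248, 2246 and 2190 in GPR174-KO. The estimate for NM_130884.4 was 718, 798 and 988 counts in WT and 1339, 1277 and 1221 in GPR174-KO. The first was lower and the second higher in every GPR174-KO library, though in TMM-scaled CPM the second was close between WT replicate 3 (55.5) and GPR174-KO replicate 3 (56.8). NM_130884.4 thus made up 13.9 ± 3.64% (SD, n = 3) of the gene's counts in WT and 36.5 ± 0.798% in GPR174-KO, and WT replicate 3, at 18%, was the WT library nearest to GPR174-KO. This was not tested, since reads shared by both transcripts are divided by an estimate. Shares of Idh3g transcripts also lay apart: NM_001356356.1 held 8.09%, 8.82% and 11.3% of the gene's counts in WT and 21.8%, 19.4% and 14.7% in GPR174-KO. In TMM-scaled CPM the groups overlapped for this transcript (29.7, 29.2 and 31.7 in WT, 37.1, 32.8 and 24.5 in GPR174-KO). Transcripts of other members, Slc25a11 and Suclg2 among them, also had shares that did not overlap between the groups. Of the 31 members, 15 had 1 transcript in the table and 9 had at least 2 transcripts over 5% of the gene's counts. The 2 transcripts of Mdh1 received equal counts in every library, so the estimate did not tell them apart. The counts of Slc25a13 fell on another transcript in WT replicate 1 than in the other libraries, and only its gene sum is used.

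**Figure D3:**
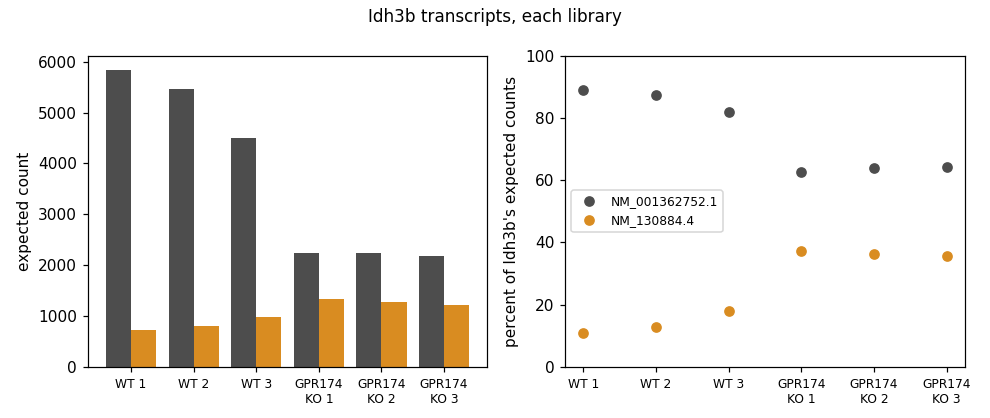
The left panel shows the expected counts of the 2 Idh3b transcripts in each library as bars from 0, and the right panel shows each transcript's percent of the gene's counts as points. The share of NM_130884.4 (orange) was 11% to 18% in WT and 35.8% to 37.3% in GPR174-KO.

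All 4 subunits of succinate dehydrogenase, which belongs both to the cycle and to the respiratory chain as complex II, were lower. Sdhb, whose promoter is printed with its NRF1 core, was the most abundant at 710.6 ± 79.4 TPM in WT. It had 496.2, 435.6 and 358.9 CPM in the WT libraries and 219.0, 201.4 and 183.7 in GPR174-KO, and fell by 1.10 ± 0.13 on the log2 scale (edgeR adjusted p = 0.00126). The groups were apart, and the GPR174-KO libraries of Sdhb spread more than those of most members. The flavoprotein Sdha stood at a log2 fold change of -0.91 and the membrane anchors Sdhc and Sdhd at -0.85 and -0.68. Of the 4 assembly factors of the enzyme, 3 were lower, with Sdhaf4 at -0.66, Sdhaf2 at -0.54 and Sdhaf1 at -0.42, and none passed both thresholds. With total counts 2 of the 4 were lower, and Sdhaf1 no longer passed (adjusted p = 0.0791).

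The malate-aspartate shuttle held the only member that rose. The other 5 were lower, and 4 of them passed both thresholds. Mdh1, the cytosolic malate dehydrogenase, had 585.8, 515.9 and 434.8 CPM in the WT libraries and 235.8, 225.1 and 209.2 in GPR174-KO and fell by 1.197 ± 0.12 on the log2 scale (edgeR adjusted p = 0.000871). The count ratio of Mdh1 to Mdh2 was 0.568, 0.560 and 0.565 in WT and 0.493, 0.488 and 0.482 in GPR174-KO, a log2 difference of -0.21 (exact permutation p = 0.1). That ratio was nearly constant within each group and did not overlap between them.

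Both aspartate aminotransferases fell past both thresholds. Got1, in the cytosol, had 213.6, 187.5 and 150.7 CPM in the WT libraries and 85.9, 84.1 and 81.3 in GPR174-KO and fell by 1.13 ± 0.12 (edgeR adjusted p = 0.00105). Got2, in mitochondria and the most abundant member of this shuttle, had 718.1, 652.1 and 567.2 CPM in the WT libraries and 294.1, 293.2 and 284.7 in GPR174-KO and fell by 1.15 ± 0.097, with the lowest adjusted p of all members (0.000672, edgeR). The ratio of Got1 to Got2 was 0.297, 0.288 and 0.266 in WT and 0.292, 0.287 and 0.286 in GPR174-KO, so the groups overlapped, with a log2 difference of 0.025 (exact permutation p = 0.9). Slc25a11, the oxoglutarate-malate carrier, stood at a log2 fold change of -0.83.

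The 2 aspartate-glutamate carriers, whose promoters are printed together, moved apart. Slc25a12, the isoform of muscle and brain, had 411.7, 332.5 and 242.3 CPM in the WT libraries and 135.1, 136.5 and 134.0 in GPR174-KO. It fell by 1.28 ± 0.18 on the log2 scale, to 41.1% of WT (edgeR adjusted p = 0.00185), and its GPR174-KO libraries were within 1.02-fold of each other while those of WT spanned 1.7-fold. Slc25a13, the isoform best known from liver, had 2.68, 2.86 and 2.92 CPM in the WT libraries and 5.50, 5.13 and 4.05 in GPR174-KO, from 43, 48 and 52 counts and 115, 109 and 87 counts. It rose by 0.79 ± 0.15 on the log2 scale (edgeR adjusted p = 0.00469), with no overlap between the groups. Slc25a12 remained the more abundant in every library: the ratio of their TPM was 152, 115 and 81.7 in WT and 23.9, 26.1 and 32.3 in GPR174-KO. The log2 difference of the count ratio was -2.03, with an exact permutation p of 0.1 and an adjusted p of 0.15 over the 6 ratios.

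Both enzymes of the glycerol phosphate shuttle were lower, with the largest fold changes of the 31 and the widest spread in WT, and their standard errors overlap those of Mpc2 and Slc25a12. Gpd1, the cytosolic glycerol 3-phosphate dehydrogenase, had 843.8, 608.0 and 263.5 CPM in the WT libraries and 206.3, 214.3 and 215.6 in GPR174-KO. WT replicate 3 was 3.2 times lower than WT replicate 1 and close to the GPR174-KO libraries, though still above them. The gene fell by 1.43 ± 0.37 on the log2 scale, with the highest adjusted p of all members (0.0166, edgeR), and this call was lost when WT replicate 2 or any GPR174-KO library was left out (adjusted p 0.0536 to 0.0594). Gpd2, the mitochondrial flavoprotein of the shuttle, had 131.4, 98.6 and 53.4 CPM in the WT libraries and 36.0, 36.6 and 38.4 in GPR174-KO and fell by 1.35 ± 0.29 (edgeR adjusted p = 0.00834). The 2 genes moved together across libraries: the count ratio of Gpd1 to Gpd2 was 6.42, 6.17 and 4.93 in WT and 5.73, 5.85 and 5.62 in GPR174-KO, a log2 difference of -0.018 (exact permutation p = 1). The related gene Gpd1l was named after its values were seen and stood at a log2 fold change of -0.0080 (edgeR adjusted p = 0.915), and at 0.27 with total counts, where it passed as higher (adjusted p = 0.0047), about the shift of the median of all genes.

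**Figure D4:**
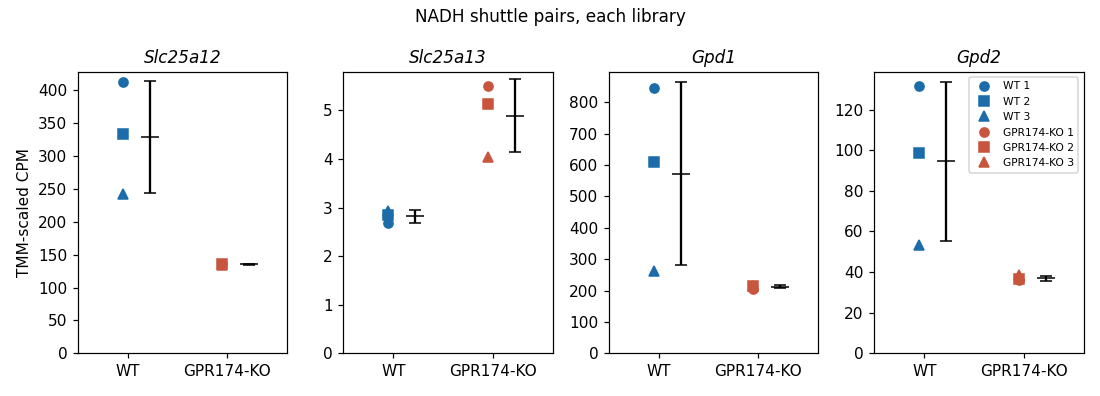
TMM-scaled CPM from 0 on the vertical axis for the 2 aspartate-glutamate carriers and the 2 enzymes of the glycerol phosphate shuttle, with 1 point per library and the mean and SD (n = 3) beside them in black. Slc25a13 is the gene with the higher GPR174-KO points, at 4.05 to 5.50 CPM against 2.68 to 2.92. WT replicate 3 (triangle) lies above the highest GPR174-KO library by 1.22-fold for Gpd1 and 1.39-fold for Gpd2.

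Neighbouring enzymes were mixed where the members were nearly uniform. Of 19 other dehydrogenases and cycle neighbours, 11 were lower and 4 higher, with a median log2 fold change of -0.40. The 3 largest changes were those of Ldhd, a mitochondrial D-lactate dehydrogenase (-1.93), Me3, the mitochondrial NADP-linked malic enzyme (-1.34), and Nnt, the transhydrogenase that makes NADPH from NADH (-1.22). Idh1, the cytosolic NADP-linked isocitrate dehydrogenase, was named after its values were seen and stood at 0.23 (edgeR adjusted p = 0.0119). With total counts the neighbours gave 8 lower and 6 higher. Of 11 other metabolite carriers, 9 were tested, 4 were lower and 2 higher, with a median of -0.20, which turned to 0.079 with total counts. The muscle ADP/ATP carrier Slc25a4 stood at -1.28, the lactate exporter Slc16a3 at -0.92 and the phosphate carrier Slc25a3 at -0.72. The 2 higher carriers were Slc25a5 (0.52) and Slc25a10 (0.50), named after their values were seen.

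Among 16 regulators of mitochondrial genes, 9 were lower and 1 higher, and with total counts 7 were lower and 5 higher. Ppargc1a, which encodes the coactivator PGC-1 alpha, had 42.1, 55.3 and 80.2 CPM in the WT libraries and 23.0, 28.9 and 36.9 in GPR174-KO and fell by 1.001 ± 0.26 (edgeR adjusted p = 0.0167). With total counts in place of TMM this call was lost (-0.74, edgeR adjusted p = 0.0611), and without WT replicate 3 the value was -0.71 (adjusted p = 0.041). WT replicate 3, the WT library with the lowest values of the 30 members that fell, had the highest Ppargc1a. Perm1, a muscle regulator downstream of PGC-1 alpha, stood at -1.83, the fatty acid receptor Ppara at -1.47 and the ERR family member Esrrb, under 2 CPM in all libraries, at -1.001. Of the genes of factors whose core sites were counted in the promoters, Esrra, Esrrg, Nrf1 and Gabpa were named after their values were seen. Esrrg, of the ERR family, stood at -0.71 in edgeR (adjusted p = 0.00167) and at -0.43 with total counts (adjusted p = 0.00267). Esrra stood at -0.56 (adjusted p = 0.00622), Nrf1 at -0.0035 (adjusted p = 0.968) and Gabpa at 0.039 (adjusted p = 0.48), all in edgeR. With total counts Esrra stood at -0.29 (adjusted p = 0.0252), and Nrf1 at 0.27 (adjusted p = 0.0205) and Gabpa at 0.31 (adjusted p = 0.00238) then passed as higher, by about the shift of the median of all genes.

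Respiratory chain genes gave values close to those of the members. All 36 complex I subunits were lower, with a median of -0.92. Of 22 subunits of complexes III and IV, 20 were lower and 2 higher, with a median of -0.96. The largest changes were in the muscle isoforms Cox7a1 (-1.76), Cox8b (-1.49) and Cox6a2 (-1.45). The 2 higher were Cox6a1 (0.42) and Cox8a (0.31), named after their values were seen. Of 16 glycolysis genes, 10 were lower and 5 higher, with a median of -0.79. The 28 genes of mitochondrial import, channels and chaperones had a median of -0.26, with 18 lower and 1 higher, and with total counts 8 were lower and 8 higher with a median of 0.018. The medians of complex I, complexes III and IV and glycolysis kept their sign with total counts (-0.64, -0.68 and -0.51), as did that of the members (-0.66). The summed TPM of the members was 0.731, 0.720 and 0.707 of that of complex I in WT and 0.687, 0.695 and 0.707 in GPR174-KO. The same ratio to the import genes was 2.85, 2.75 and 2.59 in WT and 1.96, 1.96 and 1.94 in GPR174-KO. The ratio to the import genes therefore differed between the groups with no overlap, and the ratio to complex I did not lie apart, since WT replicate 3 and GPR174-KO replicate 3 had the same value. No test was made of these sums.

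Genes of mature muscle fibres fell with the members and had a larger median change. All 16 mature fibre markers were lower, led by the fast myosin Myh2 (-2.796), the calcium buffer Pvalb (-2.34) and myoglobin, Mb (-2.02), with a median log2 fold change of -1.47, and their summed level was 222900, 206300 and 180200 TPM in WT and 107300, 103400 and 97240 in GPR174-KO. The members' summed TPM was 11430, 10580 and 9299 in WT and 6988, 6991 and 6968 in GPR174-KO. As a ratio to the mature fibre sum this was 0.0513, 0.0513 and 0.0516 in WT and 0.0651, 0.0676 and 0.0717 in GPR174-KO. Within WT the ratio of the sums was thus nearly constant although both sums differed between libraries, and it was higher in every GPR174-KO library. This holds for the sum only, since single fibre genes moved in different directions within WT. Between WT replicates 1 and 3, Pvalb fell from 8214 to 3581 CPM and Mb from 1722 to 1570, while Myh2 rose from 1593 to 2230. In bulk muscle, fewer cells of a type and less RNA per cell cannot be told apart.

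Markers of other cells moved with the genotype as well. Of 10 macrophage and monocyte markers, 9 were higher (median 0.80; Itgam 1.596, Cd68 1.22 and Lyz2 0.996 had the largest changes), and their summed level was 1631 to 2736 TPM in WT and 5251 to 5502 in GPR174-KO. Of 11 markers of regenerating fibres and myoblasts, 7 were higher (median 0.85), with sums of 5630 to 6524 TPM and 7434 to 8926 TPM. Of 7 fibroblast markers 4 were higher and 3 lower, and of 10 endothelial markers 9 were lower and 1 higher (median -0.72). Of 8 slow fibre markers 3 were lower (Myl2 at -4.29, Myl3 at -4.11 and Myh7 at -1.43) and 2 higher, with a median of 0.044. Tnnc1, named after its values were seen, was higher past both thresholds (1.09). The summed level of the slow fibre markers was 1329 to 1868 TPM in WT and 2305 to 2395 in GPR174-KO. Like the other marker sums, it is not corrected for the median TPM of all genes, which was 0.39 higher in GPR174-KO (log2). With total counts 2 of the slow fibre markers were lower and 4 higher. Of 8 adipocyte markers 2 were lower and 2 higher, and of 6 Schwann cell markers 1 was lower (with total counts none was lower and 1 was higher). None of the 5 T cell markers tested had an adjusted p under 0.05 in edgeR, with log2 fold changes of -0.19 to 0.65, and 2 of them were higher with total counts or without WT replicate 3. Of 6 neutrophil markers, 2 were tested, and 1 was lower and 1 higher. With total counts the lower call of the neutrophil list was lost, 2 fibroblast markers were lower in place of 3, and 3 adipocyte markers were higher in place of 2. The part of these cells in the members' values was not tested.

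**Figure D5:**
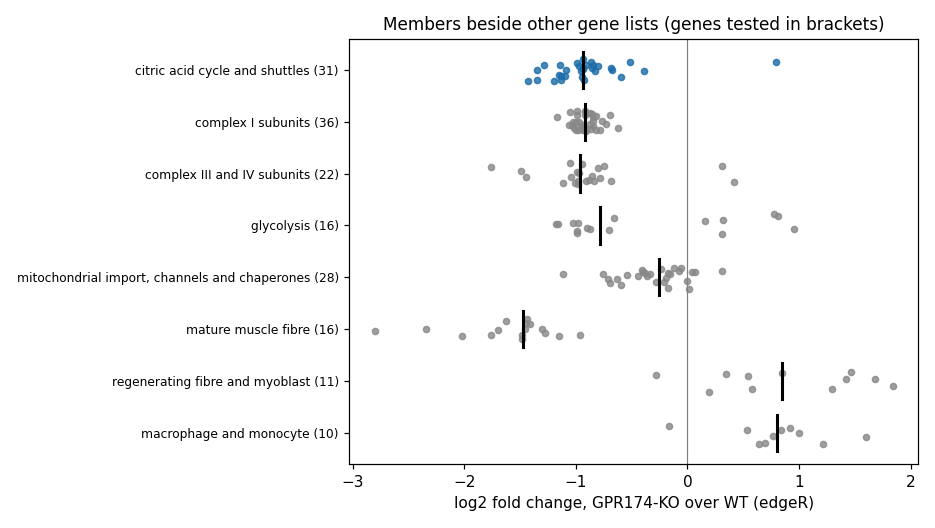
The log2 fold change of GPR174-KO over WT from edgeR is on the horizontal axis, each point is 1 gene tested, each row 1 list with its number of genes, and the black bar is the median. The 31 members (blue, median -0.94) sit with the complex I subunits (-0.92), between the mature fibre markers (-1.47) and the import genes (-0.26), and 1 member lies right of 0.

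The strand used in counting is not given in the sources used here, and in the annotation 6 members share exon bases with a gene on the opposite strand. These are Gpd2 (487 bases), Gpd1 (384), Got2 (379), Mpc1 (187), Pdha1 (603, with Map3k15) and Idh3b (5, with Nop56). Of the 6 partners, Map3k15 and Nop56 are in the table, with at most 55 and 1089 counts in a library, and reads from the opposite strand cannot be told apart from the members' own.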

How the data were processed

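Total RNA from ischemic gastrocnemius of 3 WT and 3 GPR174-KO mice was sequenced, on a BGISEQ platform by the study's methods (the labels name a TruSeq kit). The submitters' processing notes list HISAT2 2.0.4, Bowtie2 2.2.5, RSEM 1.2.12 and GRCm39, and the strand used in counting is not given in the sources used here. The authors deposited expected counts per RefSeq transcript, which need not be whole, without normalization. The deposited table also holds FPKM, which the authors scaled for length and depth, and TPM. The authors' group means were not used.

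Groups came from the labels. Expected counts of 58843 transcripts were summed per Entrez gene (18089 genes, 99.7% with a symbol) and rounded, and TPM and FPKM were summed likewise. Counts were compared with edgeR 4.0.16 in R 4.3.3 (TMM, filterByExpr, its robust quasi-likelihood test and Benjamini-Hochberg adjustment over 14395 genes), with thresholds of 0.05 on the adjusted p and 1 on the absolute log2 fold change. The biological coefficient of variation was 0.0983 and the median prior degrees of freedom were 2.84. DEGseq, named in the study's methods, was not run. Ratios of 6 gene pairs were compared by a 2-sided exact permutation test. Totals were 18417107 to 19394505 counts, and intervals or floors from counts cover counting error only.

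The members and lists were chosen with earlier results of these data known. Values per library are given for members past both thresholds, higher in GPR174-KO, or highest in mean TPM within their role. Of the other lists, Pdk1 to Pdk4, Ppargc1a and at most 3 genes a list, those with the largest change among genes that passed, are named. Other genes are said to be named after their values were seen.

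Alternatives were DESeq2 1.42.0 (size factors and Wald test), upper-quartile and total-count scaling, voom in limma 3.58.1, a fit with all genes, a minimum of 10 counts per library, limma on log2 FPKM with a pseudocount of 1 or 0.1 (a filter of FPKM 1 in 3 libraries, or none), a replicate block, leaving out each library, and pairs of replicates. The other lists were recomputed under each scaling and without WT replicate 3, which was chosen after seeing the data. The edgeR test was tested on simulated data with known changes. Promoters are RefSeq windows on GRCm38.p6, and overlapping genes are from GENCODE on GRCm38. Other scripts used Python 3.11.15, pandas 2.3.3, numpy 2.4.6 and scipy 1.17.1. One gene is not reported here.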

Additional observations from a re-analysis of the deposited data

How the results depend on the processing

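Over 20 alternatives, each of the 31 members kept its direction, and of 620 values 579 stayed on the same side of an adjusted p of 0.05 while 41 no longer passed. Of these 41, 31 came from the fit on replicates 1 and 3 of each group alone, where edgeR called 0 lower and 0 higher members in place of 30 and 1, 0 members lower past both thresholds, and 0 genes in all, against 5026 genes and 30 members with an unadjusted p under 0.05. That fit has fewer libraries, those that lie farthest apart. The other losses were those of Idh2 (-0.12 with total counts and in the 3 FPKM fits, adjusted p 0.0987 to 0.116) and of Gpd1 (adjusted p 0.0536 to 0.0786 in 6 fits). The count of 11 members lower past both thresholds became 3 with total counts, 1 with limma on log2(FPKM + 1), 2 with log2(FPKM + 0.1), 1 with log2(FPKM + 1) and no filter, and 17 with replicates 1 and 2 of each group. Leaving out 1 library gave 9 to 19, the 19 without WT replicate 3. Counts over all genes past both thresholds are given above only for total counts and without WT replicate 3. In the other fits the change cannot be set against that of all genes here. With total counts 1 member, Slc25a13, was also higher past both thresholds. The cause was not tested beyond these constructions.

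With a replicate block, 30 members were lower, 1 higher and 11 lower past both thresholds, so that no call changed. The replicate numbers did not pair the libraries (correlations of deviations 0.0117, -0.00274 and 0.00251). The 6 ratios kept their values within the spread between replicates, with ranges without single libraries of -2.26 to -1.82 for Slc25a12 to Slc25a13, -0.13 to 0.056 for Gpd1 to Gpd2 and -0.021 to 0.060 for Got1 to Got2. With 3 libraries a group, a p of 0.1 is the smallest the permutation test allows, and low counts limit Slc25a13, whose WT libraries held 43 to 52 counts.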
